A study of Mus musculus with 768 samples.

Results

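Genes that were strong in myelinating Schwann cells (SCs) but are seldom named in accounts of myelin were followed through single SCs of the adult mouse sciatic nerve. They were Spp1, Sncg, Mt3, Casq1, Fam178b, Sept3, Csrp2, Emid1, Spint1 and Sgk1. All 10 were found by gene identifier among the 25700 genes of the count table. They had been chosen because their reads were higher in myelinating than in non-myelinating cells of these same data, so that difference is given below as a description with no test. The values below are on how the genes are spread among the myelinating cells themselves and how they relate to Mfap5, the gene of a small glycoprotein of the extracellular matrix that binds microfibrils.

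The 768 cells came from mice at postnatal day 60 (P60) and were read on 2 plates of 384 cells, which are the 2 biological replicates. All mice were of the C57bl/6J background and carried a Cre transgene of the SC lineage, the Cre-dependent reporter ReYFP and βAct-DsRed, with no other allele and no treatment given. Since the transgene drives Cre in the whole lineage, the eYFP sort took myelinating and non-myelinating SCs alike. Per the study's methods each plate pooled cells of 2 male and 2 female mice after enzymatic dissociation, so values of single animals cannot be given and the plate is the unit of replication.

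A myelinating SC wraps a single large axon in a compact membrane sheath, which it builds with structural proteins such as Pmp22 and with large amounts of lipid. A Remak, or non-myelinating, SC holds many thin axons in separate grooves of its cytoplasm. Beside the myelin genes, myelinating SCs transcribe genes of secreted factors, cytosolic binding proteins and kinases whose part in the sheath is less well described, and the 10 genes here are of that kind.

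With a minimum of 1500 detected genes, 340 cells of plate 1 and 334 of plate 2 were kept, with a median of 158689 and 452483 reads per cell. Cells were clustered without the 10 genes and without Mfap5, so that these could be described in classes they had no part in making. Clusters 2 and 3 carried the markers of myelinating SCs, with all 11 markers at 50 CPM or more (reads of a gene scaled to a total of 1000000 per cell or sum), and are called mSC-like, with 155 cells in plate 1 and 83 in plate 2. Cluster 2 was led by Pllp, Ncmap and Cuedc2, while cluster 3 was led by Mfap5, Apod and Spp1, with none of the naming markers among its 10 leading genes. Clusters 0 and 1 carried those of Remak SCs and are called nm(R)SC-like, with 170 and 238 cells. Cluster 4, of 28 cells and with cell-cycle genes in the lead, stayed unnamed. The SC markers Sox10, S100b and Erbb3 were read at 144 to 404 CPM in the mSC-like sums. Of 10 fibroblast markers Lum, Pi16, Dpt and Ly6c1 had no read in mSC-like cells of plate 2, and Lum was at 6.0 CPM in plate 1. The collagen genes of that list were read, Col1a2 at 1248 and 753 CPM in plates 1 and 2, Col3a1 at 281 and 268 CPM and Col1a1 at 255 and 187 CPM, as was Dcn at 19.6 and 36.2 CPM. Of 8 immune cell markers 7, Ptprc among them, had no read in mSC-like cells of plate 2 and at most 0.142 CPM in plate 1, and Csf1r was at 9.21 and 18.1 CPM.

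Reads were summed over the cells of a class within a plate, and the level of a gene is its CPM in that sum. All 10 genes were at least 4-fold higher in mSC-like than in nm(R)SC-like cells in both plates, on a scale of CPM + 1. This was so for 341 of the 11791 genes with 1 CPM or more in a class of each plate (2.89%), and since the genes had been chosen from this contrast nothing is read from the count. The smallest ratio in plate 1 was that of Csrp2, 10.2-fold, and the largest that of Spp1, 155-fold. In plate 2 Sncg had the smallest, 12.4-fold. The largest cannot be ranked there, since the nm(R)SC-like sums of Mt3, Sept3 and Spint1 held next to no reads. In the 238 cells of that class Mt3 and Sept3 each had 2 reads, which without the added 1 CPM gives a ratio of 14130 (counting interval 3911 to 116700) for Mt3 and 13540 (3747 to 111800) for Sept3. Spint1 had no read there and was at 69.7 CPM in mSC-like cells, which makes it at least 3410-fold higher against a floor of 3 reads over the group. Emid1 was 738-fold higher on the scale of CPM + 1.

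**Figure D1:**
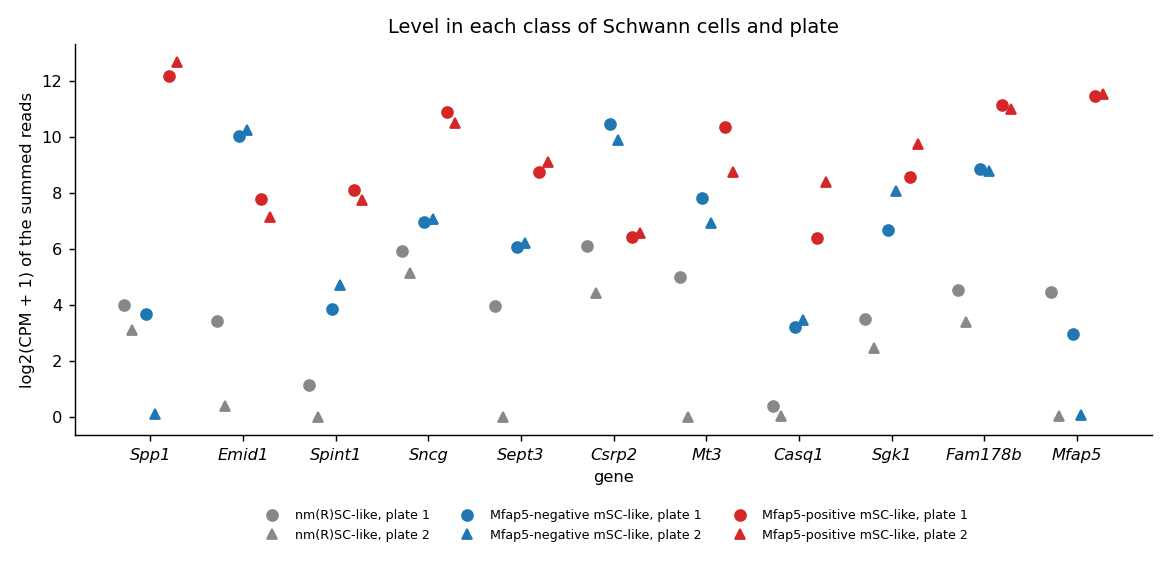
Level of the 10 genes and Mfap5, as log2(CPM + 1) of the reads summed over the cells of a class, in nm(R)SC-like cells (grey), Mfap5-negative mSC-like cells (blue) and Mfap5-positive mSC-like cells (red) of plate 1 (circles) and plate 2 (triangles). In 8 of the 10 genes both red points lie above both blue points, and in Emid1 and Csrp2 both lie below them.

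The genes covered a wide range of abundance. Per kilobase of exon, Spp1 was the 19th of the 11999 genes with 1 CPM or more in mSC-like cells of plate 1 and the 37th of 10531 in plate 2, with 1519 and 931 CPM per kilobase. Without the cell that held 44.0% of its reads it was at 548 CPM per kilobase in plate 2. Sncg, Mt3, Fam178b, Csrp2 and Emid1 were among the first 292 genes in both plates. Sgk1, Spint1, Sept3 and Casq1 were lower, down to the 2118th place. Casq1 was the lowest of the 10 in plate 1, at 24.5 CPM per kilobase. In plate 2 it was at 44.0 CPM per kilobase, above Spint1 (25.2) and Sept3 (27.9), but 1 cell held 83.5% of its reads and without that cell it was at 7.46. The plates differed most for Mt3, whose level in mSC-like cells was 813 and 193 CPM in plates 1 and 2.

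How widely each gene was expressed was measured as the share of mSC-like cells with 5 or more reads of it after each cell was thinned to 100000 reads, which 112 cells of plate 1 and 80 of plate 2 could supply. Fam178b was the most widespread in plate 1, in 75% of cells (exact 95% interval 65.9 to 82.7), and Emid1 in plate 2, in 66.3% (54.8 to 76.5). Casq1 was the rarest in both plates, in 14.3% (8.39 to 22.2) and 3.75% (0.780 to 10.6) of cells. No gene was thus read in all myelinating cells. Over the 10 genes the median share was 51.8% in plate 1 and 43.8% in plate 2, and intervals cover counting error only.

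The order of the other shares depended on the plate. In plate 1 Mt3 (70.5%) and Sncg (66.1%) followed Fam178b, then Sept3 (56.3%), Emid1 and Sgk1 (51.8% each), Csrp2 (47.3%), Spp1 (42%) and Spint1 (27.7%). In plate 2 Emid1 was followed by Fam178b (55%), Csrp2 (52.5%), Mt3 and Sgk1 (47.5% each), Sncg (40%), Sept3 (20%), Spp1 (15%) and Spint1 (10%). Neighbours in either order had intervals that overlapped, so their places are not set apart by the counting error. Thinned to 100000 reads, mSC-like cells had a median of 2968 genes in plate 1 and 1756 in plate 2. How many of all genes had a lower share in plate 2 was not counted, so nothing is read from the count that follows. Between the plates 5 genes had intervals that did not overlap, all with the lower share in plate 2. They were Sept3 (11.9 to 30.4 in plate 2 against 46.6 to 65.6 in plate 1), Spp1 (8.0 to 24.7 against 32.7 to 51.7), Sncg (29.2 to 51.6 against 56.5 to 74.8), Mt3 (36.2 to 59.0 against 61.2 to 78.8) and Spint1 (4.42 to 18.8 against 19.6 to 36.9). Without a replicate of a plate these differences cannot be told apart from the mice pooled on it, the makeup of its mSC-like cells or its library handling.

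**Figure D2:**
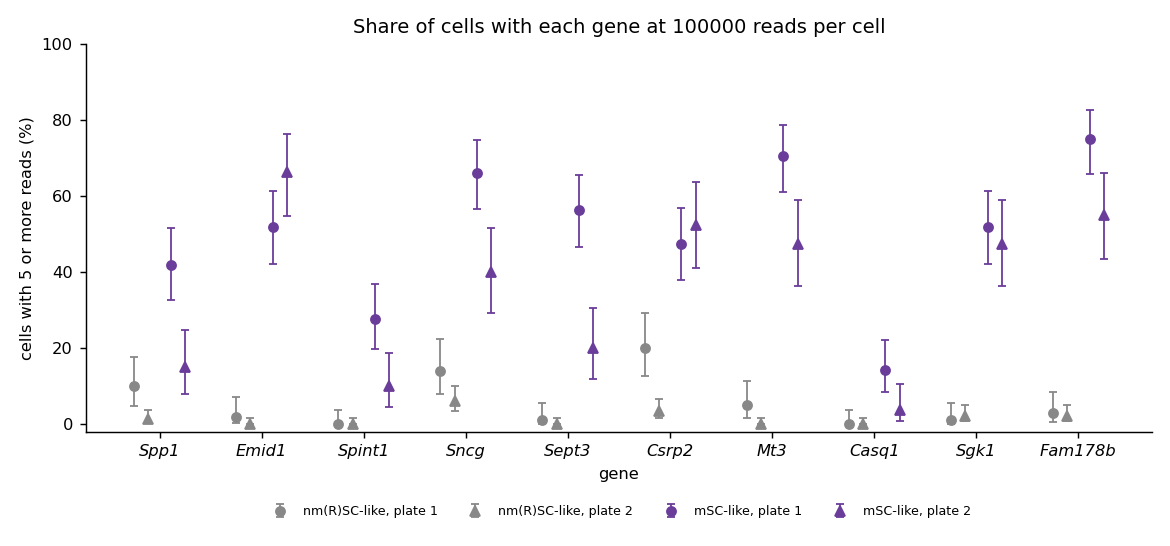
Share of cells with 5 or more reads of each gene at 100000 reads per cell, in nm(R)SC-like (grey) and mSC-like cells (violet) of plate 1 (circles) and plate 2 (triangles), with exact 95% intervals as bars. The mSC-like share exceeds the nm(R)SC-like share in every gene and plate, and the highest grey point is Csrp2 in plate 1 at 20%.

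The same share in nm(R)SC-like cells, which serves as background, was 20% for Csrp2, 14% for Sncg and 10% for Spp1 in plate 1 and 5% or less for the other genes. In plate 2 it was 6.06% for Sncg, 3.46% for Csrp2 and at most 2.17% for the others. The plates differed more strongly when a single read was enough. Spp1 had a read in 138 of the 170 cells of this class in plate 1 but in 13 of the 238 in plate 2, and Mfap5 in 130 and 7. In plate 1 these were low numbers, with a median of 2 reads per cell for both genes, and their CPM fell with the depth of the cell (Spearman -0.563 for Spp1 and -0.311 for Mfap5 over 170 cells that share a plate). Where the few reads of plate 1 came from was not tested, and shares are given here at 5 reads or at 50 CPM.

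mSC-like cells were split by Mfap5. A cell with 50 CPM or more of Mfap5 is called Mfap5-positive, and there were 83 such cells in plate 1 (53.5% of mSC-like cells) and 19 in plate 2 (22.9%), against 72 and 64 Mfap5-negative cells. The split was sharp in plate 2, where 61 of the negative cells had no read of Mfap5 and no cell lay between 25 and 100 CPM. In plate 1, 19 negative cells had no read and 12 cells lay near the limit. Although Mfap5 had no part in the clustering, cluster 3 held 61 of the 83 positive cells of plate 1 and 16 of the 19 of plate 2, and only 1 and 4 negative cells. In nm(R)SC-like cells 29 of 170 reached 50 CPM in plate 1, 26 of them with under 100000 reads, and 0 of 238 in plate 2.

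Reads were then summed per plate and Mfap5 class, and the 4 sums were compared with edgeR's quasi-likelihood test over 11489 genes with the plate as a block. This contrast lies inside the myelinating cells and is not the one that chose the genes. However, the genes were chosen with earlier results of these data known, so the calls are no independent evidence. Of all genes tested 142 were called at an adjusted p under 0.05 (1.24%), 106 of them higher (0.923%) and 36 lower (0.313%) in Mfap5-positive cells. DESeq2, with its own size factors, called 557 higher and 382 lower. All 10 genes were called, 8 of them higher and 2 lower. The median log2 ratio of the 10 was 2.77, beside -0.26 over all genes tested. In CPM, 8 genes had both positive sums above both negative sums, as had 14.7% of all genes tested, and 2 had them below, as had 24.3%. The calls rest on the pairing of the classes by plate: without the block 1 of the 10, Sncg, was called (edgeR adjusted p = 0.0359). With plates not integrated before clustering, 1 was called as well, Spp1. A cluster led by Csrp2, with 134 cells of plate 1, was then named nm(R)SC-like. The mSC-like clusters held 70 and 14 cells of that plate, instead of 155 in all. With a limit of 10 CPM of Mfap5 Casq1, Emid1 and Sgk1 were not called.

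**Figure D3:**
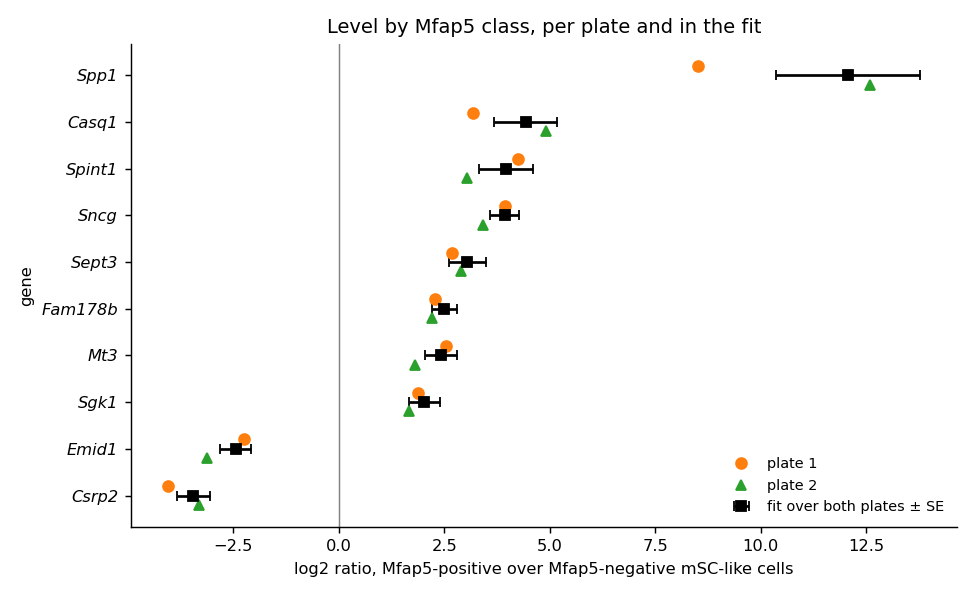
Log2 ratio of each gene between Mfap5-positive and Mfap5-negative mSC-like cells, within plate 1 (orange circles) and plate 2 (green triangles) on a scale of CPM + 1, and in the edgeR fit over both plates with its standard error (black squares and bars). In this plot 8 genes lie to the right of 0 in both plates, and Emid1 and Csrp2 lie to the left in both.

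Spp1, Emid1 and Spint1 encode secreted or membrane-bound extracellular proteins. Spp1 encodes osteopontin, a secreted phosphoprotein that binds integrins and CD44. It lies on chromosome 5 (104435118 to 104441050, GRCm38, as all coordinates here). The 250 bases before its RefSeq start, chr5:104434861-104435110 on the plus strand of the RefSeq promoter table (GRCm38.p6), are shown because Spp1 had the widest span between the Mfap5 classes. Capitals mark the TATA box letters TATAAA, found in 7.59% of the 32851 promoter windows of this length, and the core of SOX sites, ACAANG, here on the other strand, found in 36.3%. Both shares count a match anywhere in the window. The letters TATAAA lie at -211 to -206 from the start, and whether they act as a TATA box was not tested. Both strands were searched here and below, except for TATAAA, which was sought on the strand shown only.
Spp1: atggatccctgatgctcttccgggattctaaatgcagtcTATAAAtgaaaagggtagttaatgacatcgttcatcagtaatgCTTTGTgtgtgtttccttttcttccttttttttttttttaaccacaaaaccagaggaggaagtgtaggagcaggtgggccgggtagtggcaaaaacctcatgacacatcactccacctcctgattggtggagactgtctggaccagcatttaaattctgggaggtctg

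In Mfap5-positive cells Spp1 stood at 4731 and 6670 CPM in plates 1 and 2. In Mfap5-negative cells it stood at 12 CPM and 0.0847 CPM, the latter being 4 reads in all 64 cells. Spp1 was therefore close to absent from Mfap5-negative cells of plate 2, and the fitted ratio of 12.06 ± 1.71 (log2, SE, edgeR adjusted p = 0.00642) depends on how such a count is treated. Within plate 1 the log2 ratio was 8.51. Not every Mfap5-positive cell had it: single cells ranged from 0 to 26880 CPM around a median of 1233 in plate 1, and from 0 to 23760 around 1420 in plate 2. It reached 50 CPM in 64 of 83 and 12 of 19 positive cells, and in 8 of 72 and 0 of 64 negative cells. A single cell held 44.0% of the Spp1 reads of plate 2, and the positive sum without it was at 4764 CPM. The exons of Spp1 overlap those of Gm42793 on the same strand over 309 bases, and Gm42793 was called with it (log2 11.24 ± 1.54, SE, edgeR adjusted p = 0.00624), so reads of that stretch cannot be given to either gene.

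Emid1 encodes a secreted protein with an EMI domain and a collagen-like stretch (chromosome 11, 5106265 to 5152257). It was 1 of the 2 genes that were lower in Mfap5-positive cells, with 225 and 141 CPM in plates 1 and 2 against 1064 and 1223 CPM in Mfap5-negative cells. The log2 ratio was -2.44 ± 0.36 (SE, edgeR adjusted p = 0.00892). Without the cell with most reads in each positive sum the levels were 142 and 89.0 CPM. In the negative cells it was broad, with a median of 1133 and 1120 CPM per cell and 5 thinned reads in 66.7% and 75.4% of cells. It was not absent from positive cells, since 37.9% and 36.8% of them met the same limit. Its promoter window, chr11:5152231-5152480 on the minus strand, is shown as the window of the 10 genes with most matches to the EGR core GNGGGNG, the kind of site that Egr2, the factor that drives myelination, can bind. Capitals mark the 14 matches, several of which overlap. A match is a description of the letters, and 60.3% of all windows hold at least 1.
Emid1: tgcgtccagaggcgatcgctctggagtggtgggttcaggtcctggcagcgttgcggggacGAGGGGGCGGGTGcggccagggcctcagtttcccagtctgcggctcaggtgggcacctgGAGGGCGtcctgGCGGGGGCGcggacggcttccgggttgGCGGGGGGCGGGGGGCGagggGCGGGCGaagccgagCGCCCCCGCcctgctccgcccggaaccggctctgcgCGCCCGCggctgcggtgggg

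Spint1 encodes a membrane-bound Kunitz inhibitor of serine proteases that activate hepatocyte growth factor (chromosome 2, 119237362 to 119249527). It was at 276 and 218 CPM in Mfap5-positive cells of plates 1 and 2 and at 13.5 and 25.6 CPM in Mfap5-negative cells. The log2 ratio was 3.96 ± 0.63 (SE, edgeR adjusted p = 0.0114). Even among positive cells it was patchy, with 5 thinned reads in 46.6% (33.3 to 60.1) and 31.6% (12.6 to 56.6) of cells. In plate 2 only 8 mSC-like cells had any read of it, 6 of them Mfap5-positive, and 1 of the 2 negative cells held 69.8% of the reads of its group, which was at 7.84 CPM without it. In plate 1 the negative sum was at 8.56 CPM without its top cell.

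Sncg, Sept3 and Csrp2 encode cytosolic or cytoskeletal proteins. Sncg encodes γ-synuclein, a small protein best known from peripheral neurons (chromosome 14, 34370274 to 34374789). It was at 1929 and 1461 CPM in Mfap5-positive cells and at 125 and 136 CPM in Mfap5-negative cells. The log2 ratio of 3.93 ± 0.34 (SE) had the smallest adjusted p of the 10 (edgeR, 0.000196). All 58 positive cells of plate 1 and 17 of the 19 of plate 2 had 5 thinned reads of Sncg, against 29.6% and 24.6% of negative cells. Spp1 was thus found in part of the positive cells and Sncg in nearly all of them. Its window, chr14:34374670-34374919 on the minus strand, is shown beside that of Emid1 since the genes went opposite ways. Capitals mark its 4 EGR cores, all on the other strand, of which 2 overlap.
Sncg: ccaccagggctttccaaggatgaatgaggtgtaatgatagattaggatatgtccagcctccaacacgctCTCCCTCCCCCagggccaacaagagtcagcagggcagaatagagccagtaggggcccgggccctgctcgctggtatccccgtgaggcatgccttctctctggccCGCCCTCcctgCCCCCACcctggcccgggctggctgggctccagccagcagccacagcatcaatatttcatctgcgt

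Sept3 encodes a septin, a GTP-binding protein that builds filaments below the membrane (chromosome 15, 82274893 to 82294574). It was at 434 and 554 CPM in Mfap5-positive cells against 66.3 and 74.1 CPM in Mfap5-negative cells. The log2 ratio was 3.05 ± 0.44 (SE, edgeR adjusted p = 0.00687). A single cell held 49.7% of the positive reads and another 67.4% of the negative reads in plate 2, where the levels without them were 356 and 25 CPM. The direction thus did not rest on these cells.

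Csrp2 encodes a LIM-domain protein that binds actin-linked partners and is known from smooth muscle (chromosome 10, 110919789 to 110939622). It was the other gene lower in Mfap5-positive cells, which were at 85.1 and 95.6 CPM while negative cells were at 1411 and 951 CPM. The log2 ratio was -3.44 ± 0.40 (SE, edgeR adjusted p = 0.00239). A single cell weighed on the positive sum of plate 2, which was at 46.2 CPM without it. Among negative cells 77.8% and 63.9% had 5 thinned reads of it, and among positive cells 19% and 15.8%. The nm(R)SC-like share was 20% in plate 1 and 3.46% in plate 2. The positive cells thus lay near it in plate 1. In plate 2 their share was higher, but their interval of 3.38 to 39.6 included 3.46%.

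Mt3 and Casq1 bind metal ions. Mt3 encodes metallothionein 3, which binds zinc and copper and is otherwise best known from the brain (chromosome 8, 94152607 to 94154146). It was at 1336 and 430 CPM in Mfap5-positive cells and at 229 and 122 CPM in Mfap5-negative cells. The log2 ratio was 2.42 ± 0.37 (SE, edgeR adjusted p = 0.0102). All 58 positive cells of plate 1 and 18 of 19 of plate 2 had 5 thinned reads. So did 38.9% and 32.8% of the negative cells.

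The other metallothioneins give a comparison within the family. Mt2 was also called higher (log2 1.94 ± 0.32, SE, edgeR adjusted p = 0.0132), with 1960 and 922 CPM against 482 and 355 CPM. Mt1 was the most abundant gene of the metallothionein list per kilobase in the mean of both plates (1653 CPM per kilobase, Mt2 1486), although Mt2 was the higher in plate 1 (2147 against 1986). The Mt1 ratio of 0.73 ± 0.26 (SE) was not called (edgeR adjusted p = 0.349). In nm(R)SC-like cells Mt1 was at 999 and 394 CPM and Mt2 at 328 and 61.1 CPM, while Mt3 was at 31.0 CPM in plate 1 and had the 2 reads in plate 2. The windows of Mt3 (chr8:94152357-94152606) and Mt2 (chr8:94172368-94172617), both on the plus strand, are shown for the letters TGCNCNC in capitals, with 1 match in Mt3 and 5 in Mt2. This is a looser form of the metal response element core, which takes only A or G at the first N. The Mt3 match, GGGAGCA, reads TGCTCCC on the other strand and so is not that core. In Mt2 the matches GGGAGCA and TGCTCTC are not either. The looser form is present in 44.4% of all windows. How reads that fit several metallothionein genes were counted is not given in the sources used here.
Mt3: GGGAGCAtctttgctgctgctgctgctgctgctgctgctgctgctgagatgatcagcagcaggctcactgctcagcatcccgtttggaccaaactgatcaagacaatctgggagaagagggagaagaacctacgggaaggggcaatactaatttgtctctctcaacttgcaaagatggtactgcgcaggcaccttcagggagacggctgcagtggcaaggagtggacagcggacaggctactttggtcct
Mt2: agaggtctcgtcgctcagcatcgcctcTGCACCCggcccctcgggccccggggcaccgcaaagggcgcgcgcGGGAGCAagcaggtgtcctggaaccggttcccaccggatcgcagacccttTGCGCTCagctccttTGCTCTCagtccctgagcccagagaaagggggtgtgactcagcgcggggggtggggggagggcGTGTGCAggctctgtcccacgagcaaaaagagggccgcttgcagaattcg

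Casq1 encodes calsequestrin 1, the calcium store protein of the sarcoplasmic reticulum of fast skeletal muscle (chromosome 1, 172209894 to 172219868). It was the rarest of the 10. Mfap5-positive cells were at 83.3 and 339 CPM and negative cells at 8.31 and 10.3 CPM, with a log2 ratio of 4.43 ± 0.74 (SE, edgeR adjusted p = 0.0144). In plate 2 this rested on few cells: 3 of 19 positive cells and 1 of 64 negative cells had a read, and 1 positive cell held 92.0% of the positive reads. Without that cell the positive sum was at 31.0 CPM. In plate 1, 30 of 83 positive and 9 of 72 negative cells had reads, but without the cell with most reads the negative sum fell to 1.23 CPM. Exons of Casq1 overlap the antisense gene Gm17224, which is not among the genes counted, and the strand setting of the counting is not stated.

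Sgk1 encodes a serum- and glucocorticoid-induced kinase that regulates ion transport (chromosome 10, 21882184 to 21999903). It was at 381 and 861 CPM in Mfap5-positive cells and at 103 and 270 CPM in Mfap5-negative cells. Its log2 ratio of 2.03 ± 0.37 was the smallest in size of the 10 (SE, edgeR adjusted p = 0.0226). In plate 2 Sgk1 was common on both sides, in 73.7% (48.8 to 90.9) of positive and 39.3% (27.1 to 52.7) of negative cells. Of the 6 windows listed for Sgk1, the one at chr10:21993640-21993889 on the plus strand is shown because it alone holds the full glucocorticoid response element, here GNACA and TGTNC with any 3 bases between them, in capitals. It is present in 0.387% of all windows.
Sgk1: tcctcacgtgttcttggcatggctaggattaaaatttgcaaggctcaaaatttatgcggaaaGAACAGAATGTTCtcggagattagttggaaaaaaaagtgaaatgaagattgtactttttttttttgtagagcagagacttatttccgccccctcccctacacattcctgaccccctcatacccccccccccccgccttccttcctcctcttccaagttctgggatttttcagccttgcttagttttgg

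Fam178b encodes a protein of little-known function (chromosome 1, 36562692 to 36683183). It was read in nearly all Mfap5-positive cells, at 2301 and 2069 CPM in the 2 plates, with a median of 1920 and 2061 CPM per cell and 5 thinned reads in 58 of 58 and 18 of 19 cells. Mfap5-negative cells were at 471 and 444 CPM. The log2 ratio was 2.5 ± 0.30 (SE, edgeR adjusted p = 0.00239). Close to equal parts of the negative cells had and lacked it, with 48.1% and 42.6% at 5 thinned reads. Its exons overlap those of D430040D24Rik on the other strand over 119 bases, a gene that is not among those counted.

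The genes were next followed over the level of Mfap5 in single cells. Medians per cell are given, since in a sum over few cells a deep cell can decide the level. In the 19 cells of plate 1 with no read of Mfap5 they were 52.7 CPM for Sncg, 12.1 CPM for Spp1, 1141 CPM for Emid1 and 1683 CPM for Csrp2. Each of these was above the median of the next range, so no course was steady from 0 reads on. In plate 1 Sncg had a median of 13 CPM in the 53 cells with Mfap5 reads below 50 CPM, 278 CPM in the 10 cells from 50 to 500 CPM, 1481 CPM in the 21 cells from 500 to 2000 CPM and 1956 CPM in the 52 cells above. For Spp1 the same ranges had medians of 9.87, 61.8, 1099 and 3509 CPM. The median of Emid1 fell at a higher range of Mfap5: it was 872 CPM in cells with Mfap5 reads below 50 CPM and 1023 CPM from 50 to 500, and then 3.82 and 13.1 CPM. Csrp2 had medians of 818, 896, 7.25 and 6.17 CPM, and in the 10 cells between both genes were near their medians in the cells with Mfap5 reads below 50 CPM. Some of these 10 cells held few reads: in a cell among them Mfap5, Mt3, Fam178b and Emid1 all stood at the same 307 CPM. At such depth few reads of Mfap5 place a cell in this range, and where they came from was not tested. Only 1 and 5 cells of plate 2 lay in the middle ranges, so the course cannot be followed there.

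**Figure D4:**
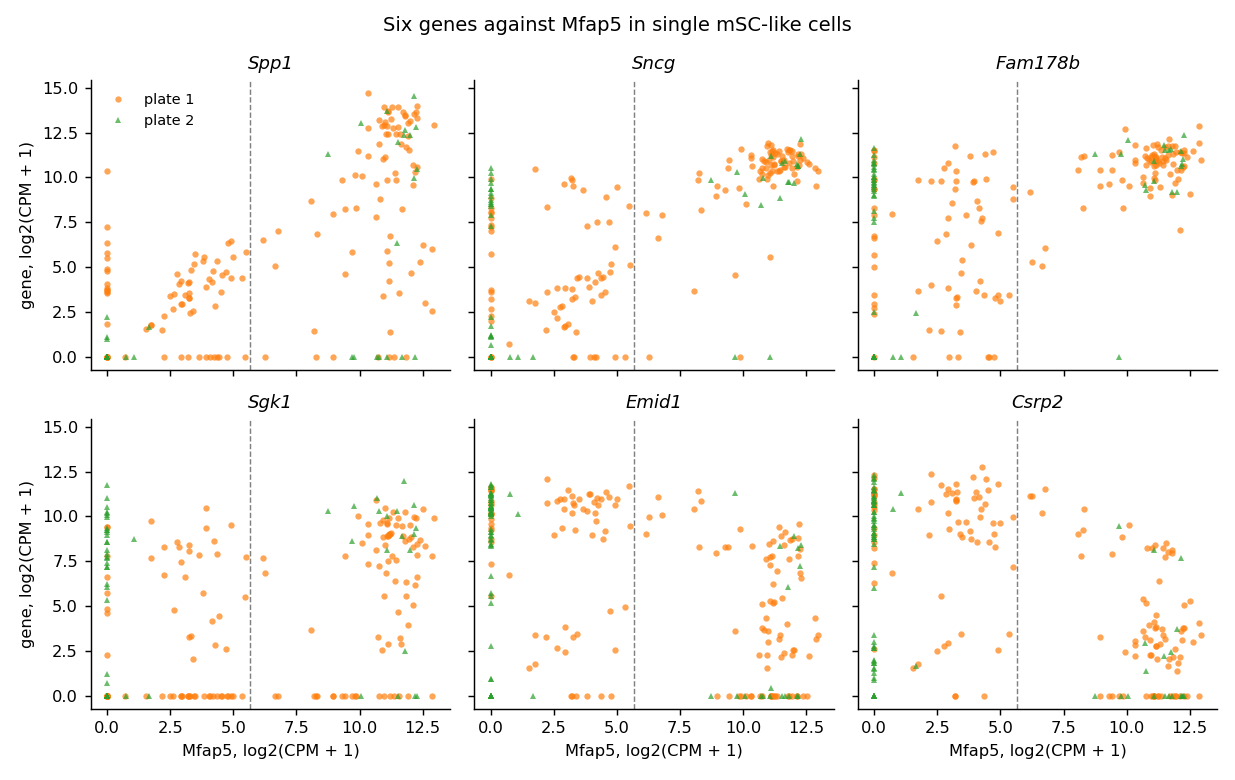
Level of 6 of the genes against that of Mfap5 in each of the 155 mSC-like cells of plate 1 (orange circles) and 83 of plate 2 (green triangles), both as log2(CPM + 1), with the limit of 50 CPM as a dashed line. Right of the line Sncg and Fam178b form a compact group while Spp1 spreads from 0 to 26880 CPM, and cells with much Emid1 or Csrp2 lie mostly to its left.

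Over thinned mSC-like cells, 112 in plate 1 and 80 in plate 2, Spearman correlations with Mfap5 were positive for 8 genes and negative for Emid1 and Csrp2 in both plates. Cells of a plate share mice and library, so these values are descriptions. Sncg (0.760 in plate 1, 0.662 in plate 2) and Spp1 (0.646, 0.766) had the highest. Fam178b (0.612, 0.545), Mt3 (0.603, 0.503), Sept3 (0.392, 0.589), Sgk1 (0.474, 0.375) and Spint1 (0.412, 0.371) followed, and Casq1 was the lowest of the positive ones (0.207, 0.212). Csrp2 stood at -0.550 and -0.414 and Emid1 at -0.400 and -0.423. The reads of the 11 mSC markers, summed in each thinned cell, had correlations with several of the genes of much the same size. They were 0.732 and 0.590 for Sncg, 0.682 and 0.653 for Fam178b and 0.638 and 0.626 for Mt3. For Emid1 they were only -0.112 and -0.097. Pmp22 weighed most among these markers, with 53530 of 65960 CPM in mSC-like cells of plate 1 and 51730 of 64790 CPM in plate 2. The relation with Mfap5 lay mainly between the 2 sides of the split, since among the 58 Mfap5-positive cells of plate 1 alone values lay between -0.211 and 0.172. Among the 19 of plate 2, Sncg still had 0.567, and the other genes lay between -0.167 and 0.343.

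The genes of the positive side also went together among themselves. Sncg and Mt3 had the highest correlation of all pairs in plate 1 (0.762), and Sncg and Spp1 in plate 2 (0.605). Emid1 and Csrp2 formed a pair of their own (0.471 and 0.489). All correlations of Csrp2 with the 8 genes were negative, down to -0.546 with Mt3 in plate 1, and those of Emid1 were negative too, though with Casq1 the value in plate 1 was -0.003. All 12 cells of plate 2 and 65 of the 72 of plate 1 with 50 CPM of Spp1 also had 50 CPM of Sncg. Counted at 50 CPM, a Mfap5-positive cell had a median of 6 of the 10 genes in both plates, a negative cell 4 and 3, and an nm(R)SC-like cell 1 and 0.

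**Figure D5:**
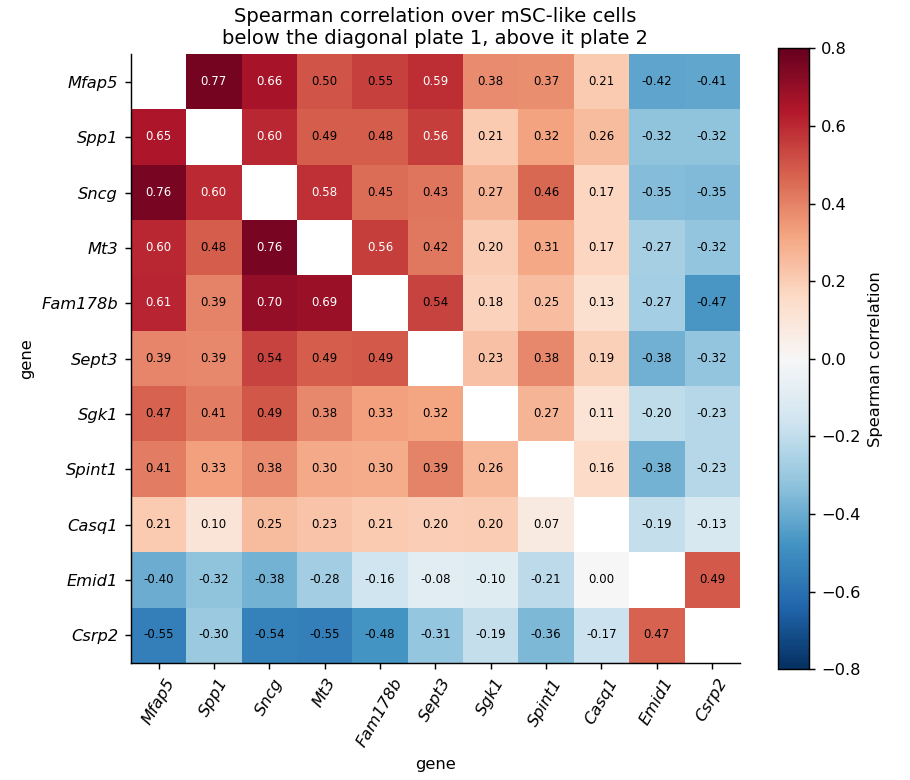
Spearman correlation between the 10 genes and Mfap5 over mSC-like cells thinned to 100000 reads, with 112 cells of plate 1 below the diagonal and 80 cells of plate 2 above it, from blue (negative) to red (positive). Mfap5 and 8 genes form a red block in both plates, and Emid1 and Csrp2 form a second one, with 0.47 and 0.49.

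The genes most like each of the 10 were sought among 2283 others read in 25% or more of the mSC-like cells of both plates, ranked by the lower of the 2 plates' correlations. Mfap5, Ogn (a small leucine-rich proteoglycan) and Cntf (ciliary neurotrophic factor) came first for Sncg, with Cntf at 0.799 in plate 1 and 0.614 in plate 2. For Spp1 they were Cfap100 (0.663, 0.763), Mfap5 and Cntf. Pmp22, the myelin protein whose gene dosage underlies Charcot-Marie-Tooth disease, was among the 3 nearest of Mt3, Fam178b, Sept3, Spint1 and Sgk1, between 0.415 and 0.675. Others of these were Ogn for Mt3, Fam178b and Spint1, Sult1a1 for Mt3, Cd9 for Fam178b, Dusp15 and Cfap100 for Sept3, Cers2 for Spint1, and Maf and Mfap5 for Sgk1.

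Emid1 and Csrp2 had other neighbours. Cuedc2 came first for both, at 0.596 and 0.595 for Emid1 and 0.613 and 0.586 for Csrp2. It was followed by Mbp, a protein of compact myelin, for Emid1 and by mt-Nd1 and Ppia for Csrp2. Casq1 had no close neighbour, with 0.315 and 0.287 for Pmvk, an enzyme of cholesterol synthesis, and lower values for Mal and Rtn3.

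Other properties of the cells moved with the Mfap5 classes. Of the 11 mSC markers 7 were higher in Mfap5-positive cells of both plates and 2 lower, and Pmp22 was at 80350 and 113600 CPM against 23540 and 33240 CPM. The sum of the 11 was 94830 and 128400 CPM in positive and 33660 and 45780 CPM in negative cells, and a mean marker level below 6 (log2(CPM + 1)) was found in no positive cell but in 15 and 16 negative ones. Without those 31 cells all 10 genes were still called, with 276 genes called in all. Of the 9 nm(R)SC markers 6 were lower in positive cells of both plates and 2 higher. Their sum was 42.28 and 13.32 CPM in positive and 560.3 and 487.9 CPM in negative cells. The nm(R)SC-like class had a sum of 3765 and 2723 CPM. Highest of them in negative cells was Ednrb, at 372.2 and 394.9 CPM, against 6.893 and 10.06 CPM in positive cells. For the nm(R)SC-like class its level was 380.8 and 273.1 CPM. Mitochondrial genes took a median of 1.66% and 0.820% of reads in positive and 3.86% and 2.01% in negative cells. The 16 genes of the response to dissociation summed to 6133 and 13890 CPM against 14430 and 27660 CPM, with 0 of 16 called in edgeR (median log2 -0.99). At an unadjusted edgeR p under 0.05 8 of them were lower and 0 higher, beside 940 of all 11489 genes in either direction. DESeq2 called Jun and Atf3 lower, beside 382 lower of 10743 genes. What these differences contributed was not tested.

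The depth of the classes had medians of 169468 and 165642 reads in plate 1 and 500343 and 671217 in plate 2 for positive and negative cells. With each cell thinned to 100000 reads before summing, all 10 genes were called. Of the fibroblast markers 0 of 10 were higher in positive cells of both plates, with sums of 1373 and 1011 CPM against 2297 and 1316 CPM. Endothelial markers summed to 54.7 and 45.5 CPM against 7.83 and 0.360 CPM, and mural cell markers to 145 and 140 CPM against 76.0 and 27.2 CPM. In each of these lists 1 of 6 genes was higher in both plates, while 2 endothelial and 0 mural cell markers were lower in both. The higher endothelial gene was Kdr, at 54.55 and 45.36 CPM in positive cells, which is nearly all of that sum. The higher mural cell gene was Tagln, at 90.15 and 86.82 CPM in positive and 35.96 and 20.18 CPM in negative cells. Pdgfrb was at 39.47 and 53.16 CPM against 39.93 and 6.968 CPM. Cdh5, Rgs5, Myh11 and Kcnj8 had no read in mSC-like cells of plate 2. Of 6 perineurial markers 2 were higher in positive cells of both plates, Slc2a1 and Itgb4, and 1 was lower, Cldn1. The perineurial list summed to 273 and 302.4 CPM in positive and 124 and 279.9 CPM in negative cells. The part of these markers in the result was not tested.

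Relatives and partners of the 10 genes, 91 in 10 lists, were mostly not called. Of the 55 that could be tested 2 were called higher, Mt2 and the integrin subunit Itgb5, and 0 lower in edgeR, a share of 3.64% beside the 1.24% of all genes. At an unadjusted edgeR p under 0.05, 7 were higher and 1 lower, beside 940 of all 11489 genes in either direction. DESeq2 called Itgb5, Mt2 and Emilin1 higher, beside 557 higher and 382 lower of 10743 genes. Itgb5, which pairs with αv to bind osteopontin, was at 42.4 and 280 CPM in Mfap5-positive and at 5.48 and 9.04 CPM in Mfap5-negative cells (log2 4.2 ± 0.85, SE, edgeR adjusted p = 0.0406). The median ratio of the 55 was 0.20. Of the 91 genes 32 were under 1 CPM in mSC-like cells of both plates.

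The relative with the highest level per kilobase in the mean of both plates was not called in any of the lists. Of the relatives of Sncg, Sncb had no read in mSC-like cells. Sept2 had a log2 ratio of -0.50 ± 0.41 (SE), Crip2 of the LIM proteins 0.67 ± 0.27 and Itgb1 0.34 ± 0.52. Of the calcium store genes Canx led with -0.14 ± 0.35, whereas Casq2, Ryr1, Trdn and Jph2, partners of Casq1 in muscle, had no read.

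Proteases that Spint1 is known to hold in check were at or near 0. St14 and Hpn had no read in mSC-like cells and Prss8 was at 0.228 and 3.05 CPM, and Met, the receptor of hepatocyte growth factor and the highest of that list, was at 7.39 and 14.3 CPM. In the list of Sgk1, its substrate Ndrg1 was the highest, at 3489 and 2619 CPM in positive and 2100 and 2549 CPM in negative cells (0.63 ± 0.26, SE, edgeR adjusted p = 0.507). The highest of the EMI-domain and SMC5/6 loader lists were Megf10 (-0.23 ± 1.57, SE) and Smc6 (-0.29 ± 0.83, SE), both without a call.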

How the data were processed

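Single SCs of adult sciatic nerve were sequenced with Smart-Seq2, a full-length protocol without molecular identifiers. The authors deposited raw counts of reads per gene and cell for 768 cells, and all columns matched a cell by title. The submitters' processing notes name bcl2fastq, STAR 2.6.1c, featureCounts and GRCm38.p5. How strand and reads that fit several genes were handled is not given in the sources used here. The study's methods name a human build, whereas the identifiers are of mouse genes. Names and coordinates come from GENCODE M21 (GRCm38), where 25664 of 25700 identifiers were found. Promoter windows are those of RefSeq on GRCm38.p6, in which 8 of the 10 genes had an entry.

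As in the study, cells needed 1500 or more genes. Their counts were log transformed at a total of 100000, and the plates were integrated with 12 canonical vectors and clustered at a resolution of 0.5 (Seurat 5.3.0, R 4.3.3). The 10 genes and Mfap5 were left out of the variable genes. The classes were rebuilt without a cell annotation and may not match the original ones. A cluster was named by the list (11 mSC or 9 nm(R)SC markers) with the higher mean standardised level and at least 3 markers at 50 CPM, and one with a median below 33.3% of its plates' median reads and no marker among its leading genes stayed unnamed. Doublets were not called, as each well received 1 sorted cell.

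Sums per plate and Mfap5 class were tested with edgeR 4.0.16 (quasi-likelihood, TMM, filterByExpr at 10 counts, the plate as block and 1 residual degree of freedom). Genes with a Benjamini-Hochberg adjusted p under 0.05 over the whole table were called. The plate pairs both classes, which come from the same pool of mice. A standard error (SE) is the log2 ratio divided by the root of its F statistic. In simulated data of 11046 genes the test recovered 3.16% of 4-fold and 37.9% of 16-fold changes, with 2 false calls. Shares used Clopper-Pearson intervals (scipy 1.17.1), which cover counting error only, as reads are not independent molecules. Ratios within a plate used a pseudocount of 1 CPM.

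The members and all gene lists were chosen with earlier results of these data known. Named beside the 10 genes and Mfap5 were every called gene of the lists of relatives, the highest gene of each list per kilobase in mSC-like cells, and for each gene the 3 genes with the highest correlation in the lower of both plates. Some genes that these rules name are not reported here. Further genes of the lists and genes that overlap a member were named after their values were seen, as were the genes that led a cluster. Alternatives were another test, normalization, filter, block, Mfap5 limit, weighting, thinning and class definition. A limit on the marker level of mSC-like cells was added after the data were seen.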

Additional observations from a re-analysis of the deposited data

Results flagged for a closer look

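The unnamed cluster led by cell-cycle genes took no part in the comparisons. Of its 11 cells of plate 1 with 100000 reads, 4 had 5 or more reads of Fam178b, a share of 36.4% (exact 95% interval 10.9 to 69.2), whereas 3% (0.623 to 8.52) of nm(R)SC-like and 75% of mSC-like cells of that plate did. The sum over its 15 cells was at 39.8 CPM, and 1 cell held 35.2% of those reads. Its 13 cells of plate 2 had no read of Fam178b, although only 2 of them reached 100000 reads. This signal was singled out because it lay in cells outside the comparisons and its interval lay above that of the nm(R)SC-like cells. Csrp2 had a higher share in the same cells, 5 of 11 or 45.5% (16.7 to 76.6), but this interval overlapped that of nm(R)SC-like cells (20%, 12.7 to 29.2). Whether the cells of plate 1 share a source with mSC-like cells was not tested.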

How the results depend on the processing

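All 10 genes kept their sign in the Mfap5 contrast under every alternative, and none of the 160 member values under an alternative was reversed. All 10 were called under DESeq2, RLE factors, no filter, 200 CPM, 0 reads, thinning, both cell filters, members kept in the clustering and high-marker cells. Without the replicate block 1 gene was called (Sncg) and without integration 1 (Spp1), of 14 and 35 genes in all, while a limit of 10 CPM left 7 and classes by marker level per cell 8 (Casq1 and Sgk1 lost, the higher adjusted p being 0.0829 with edgeR), of 66 and 70. The count over all genes rose from 142 to 939 under DESeq2, 302 with no filter, 214 at 200 CPM, 316 against cells with 0 reads, 303 after thinning, 334 with a filter of 1000 genes and 276 in high-marker cells. Within single plates the ratios moved most for Spp1, from 8.51 in plate 1 to 12.59 in plate 2, and for Casq1, from 3.18 to 4.92. The median log2 ratio over all genes lay between -0.32 and 0.49 across settings.

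The median share of 47.8% rose to 56.5% with 1 read, 57.6% without integration and 54.4% in high-marker cells, and was 43.8% to 51.8% with 1 plate left out. The count of 10 genes at 4-fold was 8 without integration. The median correlation with Mfap5, 0.441, was 0.416 without thinning, 0.466 as Pearson's r, 0.273 in cells with a read of Mfap5, 0.512 and 0.465 with filters of 1000 and 2500 genes, 0.270 without integration, 0.429 with members kept in the clustering, 0.421 by marker level per cell, 0.394 in high-marker cells and 0.439 to 0.443 with 1 plate left out. In cells with a read of Mfap5, 18 of 20 signs were kept, and Emid1 (0.129) and Sgk1 (-0.139) of plate 2 changed. Without integration 19 of 20 were kept, and Emid1 of plate 1 was at 0.037. Causes were not tested. With 2 plates, 1 residual degree of freedom and 19 positive cells in plate 2, smaller changes of a gene are beyond reach.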
